A study of Mus musculus with 5 samples.

Results

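Keratins are the intermediate filament proteins of epithelial cells, and their genes were followed through 5 RNA-seq libraries of total mouse back epidermis. The family was taken as every protein-coding gene whose name is Krt followed by a digit, which gave 37 of the 21667 genes listed. Type I keratins, the smaller and acidic kind, numbered 20, and type II keratins, the larger and basic kind, numbered 17. Keratin-associated protein genes (Krtap) were kept apart: 6 were listed and none passed the filter on low values, with a sum of at most 0.995 CPM (reads of a gene scaled to the total of the library) in a library. The animals were wild-type C57BL/6 males at postnatal day 49 whose backs had been shaved. Of the libraries, 2 came from skin given forskolin (10 µM), a plant compound that activates adenylyl cyclase, and 2 from skin given cAMP (1.325 mM), the messenger that this enzyme makes. The remaining library was labelled untreated and is called the control. Compounds were carried in DMSO and PLO lotion at 5 times their IC50 and applied 3 times in 5 days. It is not stated whether lotion was put on the control, or whether each library is a different animal. A p-value here thus reflects the spread among these particular libraries, taken largely over genes of similar level, and that spread could be technical. The study asked how signalling through the transcription factor Creb speeds up the hair cycle.

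A keratin filament is built from pairs of a type I and a type II chain, so the genes are usually expressed in pairs. Cells of the basal layer make Krt5 with Krt14, and switch to Krt1 with Krt10 when they move up and begin to cornify. Krt6, Krt16 and Krt17 belong to the outer layers of the hair follicle and appear between follicles after wounding or other stress, and other members are restricted to the inner root sheath, the hair shaft or simple epithelia.

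The control stood apart from the treated libraries in its composition, which touches every comparison with it. Nuclear genes took 7.90% of its listed signal against 25.9% to 38.0% in the treated libraries, and mitochondrial genes took 69.3% against 43.1% to 58.0%. Pseudogenes and ribosomal RNA genes were not counted as nuclear genes, here or in the shares of nuclear signal below. The median of all genes tested was 1.69 log2 units higher with forskolin than in the control and 1.66 higher with cAMP when the CPM were used as deposited. Scaling by median-of-ratios size factors moved these medians to 0.18 and 0.16. Values are therefore given on both scales, and shares and ratios within a library, which do not depend on the scaling, are given beside them. Tests were made with limma on log2(CPM + 1) over 13764 genes, with Benjamini-Hochberg adjustment and a threshold of 0.05. In bulk epidermis, fewer cells of a type and less RNA per cell cannot be told apart. Keratinocyte markers other than keratins (8 of 8 tested) summed to 816 CPM in the control and to between 1135 and 2162 CPM with treatment. With median-of-ratios scaling the order turned, at 2575 in the control and between 1016 and 1521 with treatment. On that scale 0 of the 8 were called higher, and 2 were called lower with forskolin and 5 with cAMP. Of all genes, 7.39% and 7.78% were called lower there. As deposited 5 of the 8 were called higher and 1 lower with forskolin, and 0 and 1 with cAMP. Higher calls as deposited made up 66.3% and 65.1% of all genes, and lower calls 0.341% and 0.436%.

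Of the 37 keratins, 20 had at least 1 CPM in at least 2 libraries and were tested, and the other 17 stayed at or below 1.76 CPM in every library. A mean of at least 10 CPM over the libraries was reached by 13 genes, the lowest at 19.2 CPM (Krt6b), while the highest below it stood at 8.64 CPM (Krt75). These 13 held 99.3% to 99.7% of the summed keratin signal of each library. That sum was 2714 CPM in the control, 9168 and 7908 with forskolin, and 10657 and 4594 with cAMP. As a share of the nuclear signal it was 3.77% in the control, 3.16% and 2.82% with forskolin, and 2.96% and 1.90% with cAMP. The control was thus lowest in CPM and highest as a share of nuclear transcripts.

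**Figure D1:**
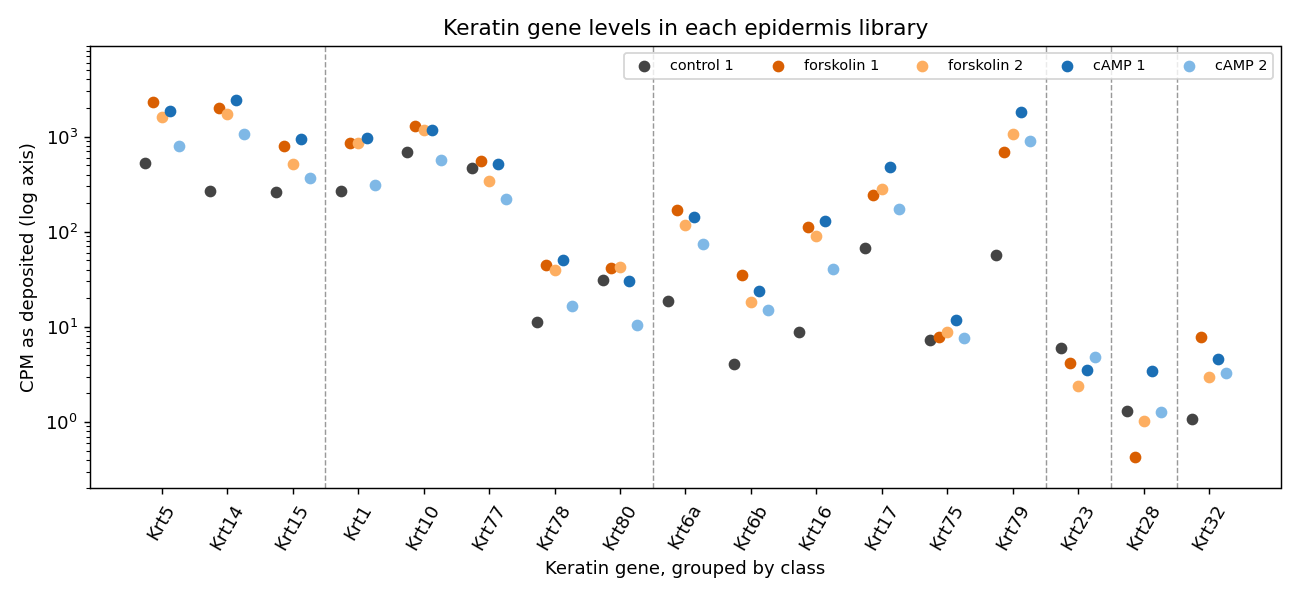
Levels of the keratin genes with a mean of at least 10 CPM or past the threshold in a comparison, in CPM as deposited on a log axis, with 1 point per library and genes grouped by class. Krt79 stands at 57.2 CPM in the control and at 689 to 1822 CPM in the treated libraries, whereas Krt77 in the control (472 CPM) lies within the treated range of 219 to 548 CPM.

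The family lies in 2 clusters: 19 members on chromosome 11, between positions 99233890 and 100269871, and 18 on chromosome 15, between 101349571 and 102032026 (GRCm38). The second cluster holds every type II member and 1 type I gene, Krt18. Per kilobase of transcript, the order of the most abundant members differed between the control and the treated libraries. These levels include second listed transcripts of Krt14 and Krt15 that do not code for the full protein, each divided by its own length. In the control Krt10 led at 331 CPM per kb, followed by Krt5 at 244 and Krt15 at 214, with Krt14 at 169. In all 4 treated libraries Krt14 led, at 1313 and 1123 CPM per kb with forskolin and 1674 and 684 with cAMP. Krt79, at 27.3 CPM per kb in the control and eighth there, ranked next to Krt14 in both cAMP libraries, at 869 and 433. In forskolin 1 the lead of Krt14 over Krt5 (1047) rested on the second transcript of Krt14. The place of Krt15 in the control likewise rested on its second transcript. Whether neighbours in these orders differ was not tested, since the control has 1 library and the cAMP libraries lay far apart.

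The basal keratins, made by the dividing cells on the basement membrane, were higher in CPM in every treated library, and no basal member passed once libraries were scaled by the median of ratios. Krt5, the type II basal keratin (ENSMUSG00000061527, chromosome 15, 101707070 to 101712891, minus strand), was at 535 CPM in the control, 2300.1 and 1619 with forskolin and 1879.8 and 801 with cAMP. Krt14, its type I partner (ENSMUSG00000045545, chromosome 11, 100203162 to 100207548, minus strand), was at 271, at 1999 and 1751, and at 2456 and 1057 CPM. The control was the lowest library for both genes and the treated groups overlapped. Krt14 passed as higher as deposited with forskolin (log2 change 2.78 ± 0.70, SE; limma adjusted p = 0.000366) and with cAMP (2.57 ± 0.70; 0.000967). With median-of-ratios scaling its changes were 0.68 (0.357) and 0.47 (0.530). Its treated libraries lay above the control there, as did those of 49.7% of all genes with forskolin and 47.5% with cAMP. Krt5 passed as deposited with forskolin (1.85, adjusted p = 0.0164), not without forskolin 1 (1.60, 0.140), and its change turned to -0.26 (0.750) with median-of-ratios scaling. With cAMP it was at 1.196 (0.119) as deposited, and passed without cAMP 2 (1.81, 0.0233). Krt15, a type I basal keratin enriched in the stem cells of the follicle bulge, was at 261 CPM in the control, 799.6 and 511 with forskolin and 953 and 369 with cAMP. Its change was 1.29 (0.0707) and 1.18 (0.0982) as deposited and -0.82 (0.224) and -0.91 (0.177) with median-of-ratios scaling. As deposited it passed with cAMP once cAMP 2 was left out (1.86, 0.0106), and with forskolin once cAMP 1 (0.0324) or cAMP 2 (0.0329) was.

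Krt14 and Krt15 each had a second listed transcript that does not code for the full protein. The processed transcript of Krt14 took 11.1% of the gene's signal in the control, 22.4% and 17.4% with forskolin and 30.7% and 19.2% with cAMP. The control had the lowest share. The retained-intron transcript of Krt15 took 26.8% in the control and between 20.1% and 28.3% with treatment, so the control lay within the treated range. How reads were divided between transcripts is not given in the sources used here.

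**Figure D2:**
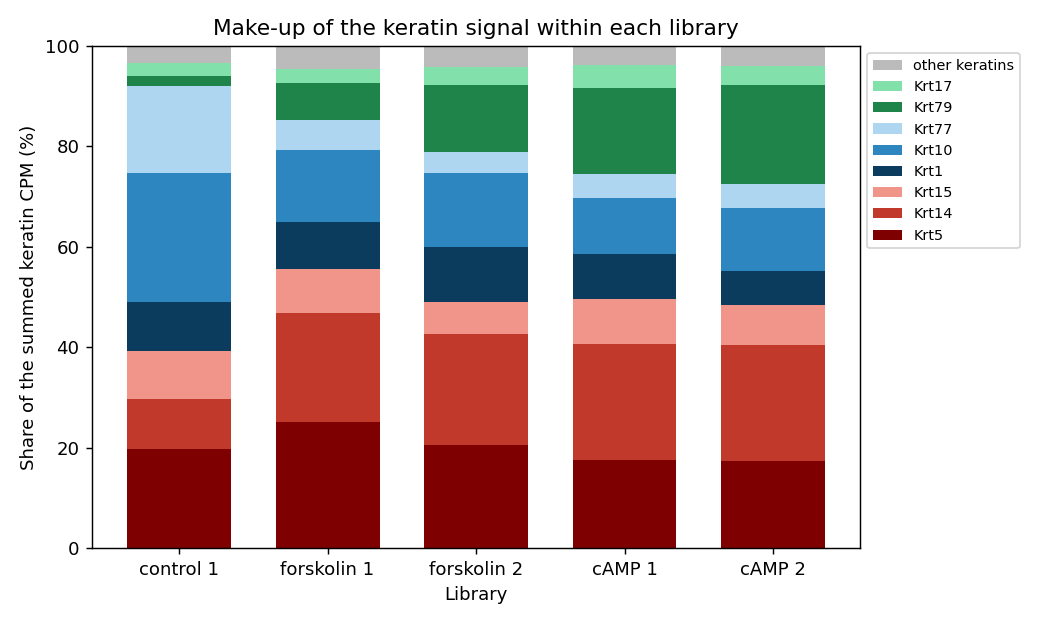
Share of each main keratin gene in the summed keratin CPM of a library, in percent, with 1 bar per library. Krt14 and Krt79 take larger shares in the 4 treated libraries than in the control, and Krt10 and Krt77 smaller ones.

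Within the keratin signal of a library, the suprabasal and cornifying class took 54.3% in the control, 30.5% and 30.9% with forskolin and 25.7% and 24.6% with cAMP. The basal class took 39.3%, then 55.6% and 49.1%, then 49.6% and 48.5%. The class of stress, outer root sheath and companion layer keratins took 6.00%, then 13.7% and 19.9%, then 24.5% and 26.6%. In each of these classes the control lay outside the range of the treated libraries. Forskolin and cAMP libraries did not overlap for the suprabasal class (30.7% ± 0.249 against 25.2% ± 0.727, SD, n = 2 each) or the stress and sheath class (16.8% ± 4.41 against 25.5% ± 1.44), and overlapped for the basal class (52.3% ± 4.63 against 49.1% ± 0.806). No test was run on these shares, since the control has 1 library and an exact permutation test of 2 against 2 libraries cannot reach the threshold. All other keratins together held under 1% of the signal in every library.

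Forskolin against control asks how skin given an adenylyl cyclase activator differed from untreated skin. As deposited, limma called 10 of the 20 tested keratins higher and 0 lower, 50% higher where 66.3% of all genes were called higher and 0.341% lower. At an unadjusted p under 0.05 the keratins numbered 11. Both forskolin libraries lay above the control for 16 keratins and below it for 2 (92.9% and 2.72% of all genes). The median keratin change was 1.40 log2 units, against 1.69 over all genes. With median-of-ratios scaling, 2 keratins were called higher, Krt16 and Krt79, and 5 lower, Krt23, Krt28, Krt75, Krt77 and Krt80, where 14.4% of all genes were called higher and 7.39% lower. Libraries lay above the control for 7 and below it for 11 keratins (49.7% and 36.7% of all genes), and the median keratin change was -0.23 against 0.18 over all genes. The count as deposited rested on the libraries: without forskolin 1 it was 6, when Krt1, Krt5, Krt32 and Krt78 were no longer called, and without forskolin 2 it was 8, when Krt1 and Krt17 were no longer called. With no filter on low values 5 were called as deposited (Krt6a, Krt6b, Krt14, Krt16 and Krt79). With no filter and median-of-ratios scaling, Krt16 (adjusted p = 0.150), Krt79 (0.0813), Krt28 (0.0717) and Krt80 (0.0779) were no longer called.

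cAMP against control, which shares the control library with the comparison above, asks the same of skin given the messenger itself. As deposited, 7 keratins were called higher and 0 lower, 35% higher where 65.1% of all genes were called higher and 0.436% lower, and at an unadjusted p under 0.05 there were 9. Both cAMP libraries lay above the control for 14 keratins and below it for 2 (91% and 3.04% of all genes). The median keratin change was 1.22, against 1.66 over all genes. With median-of-ratios scaling, Krt79 was called higher and Krt10, Krt23, Krt75, Krt77 and Krt80 lower, where 14.8% of all genes were called higher and 7.78% lower. Libraries lay above the control for 7 keratins and below it for 12 (47.5% and 36.3% of all genes), with a median keratin change of -0.80 against 0.16. Without cAMP 2, the library with the lowest keratin sum among the treated ones, 11 keratins were called higher as deposited, with Krt1, Krt5, Krt15 and Krt32 added. With no filter on low values, Krt14 (adjusted p = 0.0527), Krt17 (0.0634) and Krt78 (0.197) were no longer called as deposited, nor were Krt10 (0.0577) and Krt23 (0.0525) with median-of-ratios scaling.

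**Figure D3:**
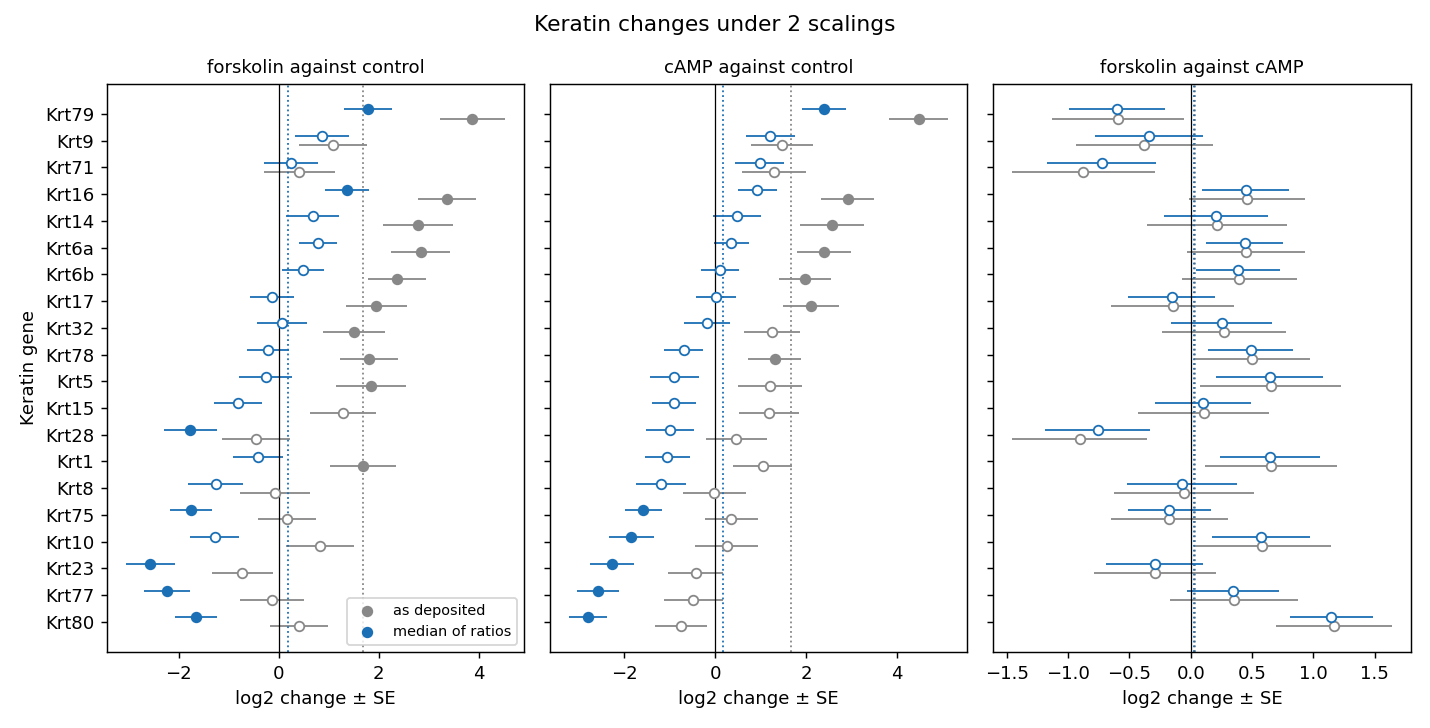
Log2 change with its SE for the 20 tested keratins in the 3 comparisons, as deposited (grey) and with median-of-ratios scaling (blue). Filled points passed the threshold, and dotted lines mark the median of all genes tested. Krt79 lies to the right of that median on both scales in the comparisons with the control, and Krt77, Krt80, Krt23 and Krt75 lie to its left.

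The suprabasal and cornifying keratins, made by cells that have left the basal layer, had a median change as deposited of 0.96 with forskolin and 0.64 with cAMP, below the 1.69 and 1.66 of all genes. As deposited 2 of 6 tested members passed as higher with forskolin (Krt1 and Krt78) and 1 with cAMP (Krt78). Of all genes, 66.3% and 65.1% did. With median-of-ratios scaling none passed as higher, where 14.4% and 14.8% of all genes did. On that scale 2 passed as lower with forskolin (Krt77 and Krt80) and 3 with cAMP (Krt10, Krt77 and Krt80). Among all genes 7.39% and 7.78% passed as lower. Krt77, a type II keratin of differentiating epidermis (ENSMUSG00000067594, chromosome 15, 101858732 to 101869705, minus strand), was at 472 CPM in the control, 548 and 339 with forskolin, and 517 and 219 with cAMP. The control lay inside the treated range in CPM. With median-of-ratios scaling it was at 1488 in the control, 386 and 258 with forskolin, and 313 and 196 with cAMP, and the control stood above all 4 treated libraries. The log2 change was -0.13 ± 0.64 (adjusted p = 0.856) with forskolin and -0.48 ± 0.64 (0.489) with cAMP as deposited, which is 1.82 and 2.15 log2 units below the median of all genes. With median-of-ratios scaling it was -2.23 ± 0.46 (0.00283) and -2.58 ± 0.46 (0.000807). Krt77 took 17.4% of the keratin signal in the control and between 4.29% and 5.98% with treatment.

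Krt10, the type I suprabasal keratin (ENSMUSG00000019761, chromosome 11, 99385254 to 99389364, minus strand), was at 693 CPM in the control, 1302 and 1163 with forskolin and 1173 and 575 with cAMP. As deposited it did not pass in either comparison (0.83, adjusted p = 0.265, and 0.24, 0.747). With median-of-ratios scaling it was at 2186 in the control, 915 and 884 with forskolin and 710.2 and 515 with cAMP, and the control stood above the others. Its fall passed with cAMP (-1.85 ± 0.49, limma adjusted p = 0.0123) and not with forskolin (-1.28 ± 0.49, 0.0693). Without cAMP 2 the call with cAMP was lost (-1.62, 0.0568).

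Krt1, the type II partner of Krt10, was at 265 CPM in the control, 863 and 858 with forskolin and 962 and 309 with cAMP. The control was lowest, and the forskolin libraries were close to each other while the cAMP libraries were far apart. Krt1 passed as higher with forskolin as deposited (1.69, adjusted p = 0.0188), at the median of all genes, and did not pass without forskolin 1 (0.113) or forskolin 2 (0.0965). With cAMP it did not pass (1.04, 0.148), and did without cAMP 2 (1.85, 0.00978). With median-of-ratios scaling its change was -0.41 (0.567) and -1.06 (0.132).

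Krt80, a type II keratin of cornifying cells found close to desmosomes (ENSMUSG00000037185, chromosome 15, 101349571 to 101370125, minus strand), was at 31.2 CPM in the control, 41.2 and 42.3 with forskolin and 30.3 and 10.6 with cAMP. The forskolin libraries lay above the control and the cAMP libraries below it. As deposited neither change passed (0.41, adjusted p = 0.513, and -0.76, 0.227), though without cAMP 1 the fall with cAMP did (-1.48, 0.0130). With median-of-ratios scaling Krt80 was at 98.3 in the control, 29.0 and 32.1 with forskolin and 18.4 and 9.45 with cAMP, lowest in cAMP 2. Its fall passed with forskolin (-1.66 ± 0.41, 0.00993) and with cAMP (-2.80 ± 0.41, 0.00017). Krt78, another type II keratin of the upper layers, was at 11.3 CPM in the control, 44.2 and 39.4 with forskolin and 51.0 and 16.6 with cAMP. It passed as higher as deposited (1.80, 0.00457, and 1.30, 0.0394), but not with forskolin without forskolin 1 (1.72, 0.0802) and not with cAMP without cAMP 1 (0.52, 0.325), forskolin 1 (0.106) or forskolin 2 (0.0998). With median-of-ratios scaling its changes were -0.21 and -0.70. Of the low members of the class, Krt9 was under 1 read in the control, between 0.847 and 1.80 CPM with treatment and did not pass with the pseudocount of 1 (1.09, adjusted p = 0.144, and 1.47, 0.0508). With a pseudocount of 0.1 it passed in both comparisons as deposited (3.60, 0.0150, and 4.22, 0.00549) and with cAMP with median-of-ratios scaling (3.81, 0.0296). Krt2 stayed at or below 0.891 CPM and was left out by the filter on low values. With no filter and median-of-ratios scaling it was called lower in both comparisons with the control.

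The class of stress, outer sheath and companion layer keratins included Krt79 and Krt16, the 2 keratins with the largest log2 changes as deposited in both comparisons. As deposited 5 of its 6 tested members passed as higher with forskolin and the same number with cAMP, where 66.3% and 65.1% of all genes did. With median-of-ratios scaling, Krt16 and Krt79 passed as higher and Krt75 as lower with forskolin, and Krt79 as higher and Krt75 as lower with cAMP. On that scale 14.4% of all genes passed as higher and 7.39% as lower with forskolin, and 14.8% and 7.78% with cAMP. Krt79, a type II keratin known from the funnel of the hair follicle and the duct that joins the sebaceous gland to it (ENSMUSG00000061397, chromosome 15, 101929332 to 101940324, minus strand), was at 57.2 CPM in the control, 689 and 1058 with forskolin and 1822 and 909 with cAMP. With median-of-ratios scaling these were 180.4, then 484 and 804, then 1103 and 814. On both scales the control was the lowest of the 5 libraries. The log2 change as deposited was 3.88 ± 0.66 (limma adjusted p = 2.81e-07) with forskolin and 4.47 ± 0.66 (3.35e-09) with cAMP, 2.19 and 2.80 above the median of all genes. With median-of-ratios scaling it was 1.78 ± 0.48 (0.0143) and 2.39 ± 0.48 (0.00199). Without forskolin 2 the rise with forskolin no longer passed on that scale (1.42, 0.0786), while the rise with cAMP passed without each treated library in turn. Krt79 took 2.11% of the keratin signal in the control, 7.51% and 13.4% with forskolin and 17.1% and 19.8% with cAMP.

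Markers of the sebaceous gland, the lipid-making gland that opens into the follicle, were in sum lowest in the control, as Krt79 was. All 7 listed markers were tested, and their summed level was 156 CPM in the control, 1386 and 2318 with forskolin and 4717 and 5187 with cAMP. With median-of-ratios scaling the sums were 493, then 975 and 1763, then 2857 and 4644. All 7 passed as higher in both comparisons with the control as deposited, where 66.3% and 65.1% of all genes did. With median-of-ratios scaling 5 passed with forskolin and 7 with cAMP, where 14.4% and 14.8% of all genes did. Scd1, which makes unsaturated fatty acids, was at 111 CPM in the control and between 947 and 3720 CPM with treatment, and no marker was under 1 read in any library. Their part in the Krt79 result was not tested.

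Krt16, a type I keratin of the outer root sheath and of stressed epidermis (ENSMUSG00000053797, chromosome 11, 100246091 to 100248902, minus strand), was at 8.80 CPM in the control, 112 and 89.2 with forskolin and 130.5 and 40.2 with cAMP. The control was lowest and cAMP 2 the lowest of the treated libraries. It passed as higher as deposited with forskolin (3.37 ± 0.58, limma adjusted p = 4.54e-07) and cAMP (2.91 ± 0.58, 1.05e-05). With median-of-ratios scaling it passed with forskolin (1.37 ± 0.43, 0.0322; 0.150 with no filter on low values) and not with cAMP (0.92, 0.133), where it passed without cAMP 2 (1.48, 0.0429). Krt16 is uncertain as a single gene: of the 50-base words in its transcript, 37.6% also occur in other genes, 25.2% in Gm11597 and 12.4% in Krt14. Of the words of Krt14, 14.4% occur in other genes, 11.4% in Krt16, and of those of Krt5, 8.52% do, 6.98% in Krt6a. For Krt79, Krt77, Krt10, Krt1 and Krt80 no word was shared.

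Krt6a and Krt6b, type II keratins that pair with Krt16 and Krt17, could not be separated with confidence either. Their coding sequences are 97.8% identical with a longest identical run of 280 bases, and 49.5% of the words of Krt6a and 50.1% of those of Krt6b occur in other genes. The 60-base stretch in which they differ most, bases 817 to 876 of the coding sequence, shows which positions can tell them apart. It comes from the GENCODE M21 transcripts on GRCm38, and capitals mark the 10 bases that differ.
Krt6a: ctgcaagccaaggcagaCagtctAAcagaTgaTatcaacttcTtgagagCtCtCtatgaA
Krt6b: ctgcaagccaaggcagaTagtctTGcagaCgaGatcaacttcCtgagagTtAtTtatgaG

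Krt6a was at 18.7 CPM in the control, 169 and 117 with forskolin and 142 and 73.6 with cAMP. Krt6b was at 4.11, at 34.9 and 18.3, and at 23.8 and 15.1 CPM. The control was lowest for both. Both passed as higher as deposited: Krt6a at 2.84 (adjusted p = 1.81e-05) with forskolin and 2.39 (0.00027) with cAMP, and Krt6b at 2.37 (0.000239) and 1.97 (0.002). With median-of-ratios scaling neither passed, with Krt6a at 0.79 (0.147) and 0.35 (0.533) and Krt6b at 0.48 (0.412) and 0.10 (0.882). All 4 treated libraries lay above the control for both genes. On that scale both libraries of a compound lay above it for 49.7% of all genes with forskolin and 47.5% with cAMP.

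Krt17, a type I keratin of the outer root sheath, was at 66.7 CPM in the control, 241 and 284 with forskolin and 482 and 174 with cAMP. It passed as higher as deposited (1.95, adjusted p = 0.00386, and 2.10, 0.00196), with forskolin only while forskolin 2 was in the fit (0.0647 without it). With median-of-ratios scaling its changes were -0.14 (0.841) and 0.02 (0.979), with the control inside the treated range. Krt75, a type II keratin of the companion layer between outer and inner root sheath, was at 7.25 CPM in the control, 7.77 and 8.84 with forskolin and 11.7 and 7.68 with cAMP. It lay slightly below all treated libraries in CPM. With median-of-ratios scaling it was at 22.9 in the control and between 5.46 and 7.08 with treatment, and it passed as lower with forskolin (-1.76 ± 0.41, 0.00692) and with cAMP (-1.58 ± 0.41, 0.0114). Krt42, the remaining member of the class, was not tested and stayed at or below 0.738 CPM.

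Keratins of other epithelia and of the growing hair were present at very low levels. Krt23, a type I keratin of several glandular and stratified epithelia, was at 5.95 CPM in the control, 4.20 and 2.40 with forskolin and 3.54 and 4.86 with cAMP. With median-of-ratios scaling the control was at 18.8 against 1.83 to 4.35, and the fall passed with forskolin (-2.56 ± 0.49, 0.00161) and cAMP (-2.27 ± 0.49, 0.00323), but as deposited it did not (-0.72, 0.272, and -0.43, 0.516). Krt8 and Krt18, the pair of simple epithelia and of Merkel cells, stood at 0.335 to 1.36 CPM and at no more than 0.290 CPM. Of 7 Merkel cell markers 4 were listed, summing to between 0.968 and 1.64 CPM per library, or with median-of-ratios scaling to 5.17 in the control and between 0.586 and 1.10 with treatment, and Krt20, Atoh1 and Sox2 were not analysed here.

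Among 6 inner root sheath keratins, Krt28 and Krt71 were tested. Krt28 was at 1.32 CPM in the control, 0.430 and 1.01 with forskolin and 3.42 and 1.29 with cAMP. It passed as lower with forskolin with median-of-ratios scaling (-1.76 ± 0.53, 0.0244), not without forskolin 1 (-1.54, 0.1003), and did not pass with cAMP. Krt71 was at about 1 read in the control (0.0203 CPM) and 0.345 to 1.86 CPM in the treated libraries, and did not pass in either comparison with the control. With cAMP it was at 1.29 (adjusted p = 0.0974) as deposited, and it passed with a pseudocount of 0.1 (3.71, 0.0467) or with no filter on low values (1.29, 0.0476). Of 5 hair shaft keratins only Krt32, a type I keratin of the hair cuticle, was tested, at 1.07 CPM in the control, 7.79 and 2.96 with forskolin and 4.56 and 3.31 with cAMP. It passed as higher as deposited with forskolin (1.51, 0.0251), not without forskolin 1 (0.94, 0.327), and with median-of-ratios scaling its change was 0.07. Other markers of the growing hair bulb (5 of 7 listed) summed to 3.34 to 11.7 CPM per library. With median-of-ratios scaling their sum was 10.8 in the control and 2.99 to 8.005 with treatment. None of the 3 tested was called higher on either scale. As deposited 66.3% of all genes were called higher with forskolin and 65.1% with cAMP, and 14.4% and 14.8% with median-of-ratios scaling. On the latter scale 1 of the 3 was called lower with cAMP, where 7.78% of all genes were. The 4 mucosal and corneal keratins listed (Krt4, Krt12, Krt13 and Krt24) reached at most 1.76 CPM. At an estimated 34200000 to 51700000 reads per library, the floor of 3 reads lies between 0.0581 and 0.0878 CPM, so values of this size rest on few reads, and the floor covers counting error only.

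**Figure D4:**
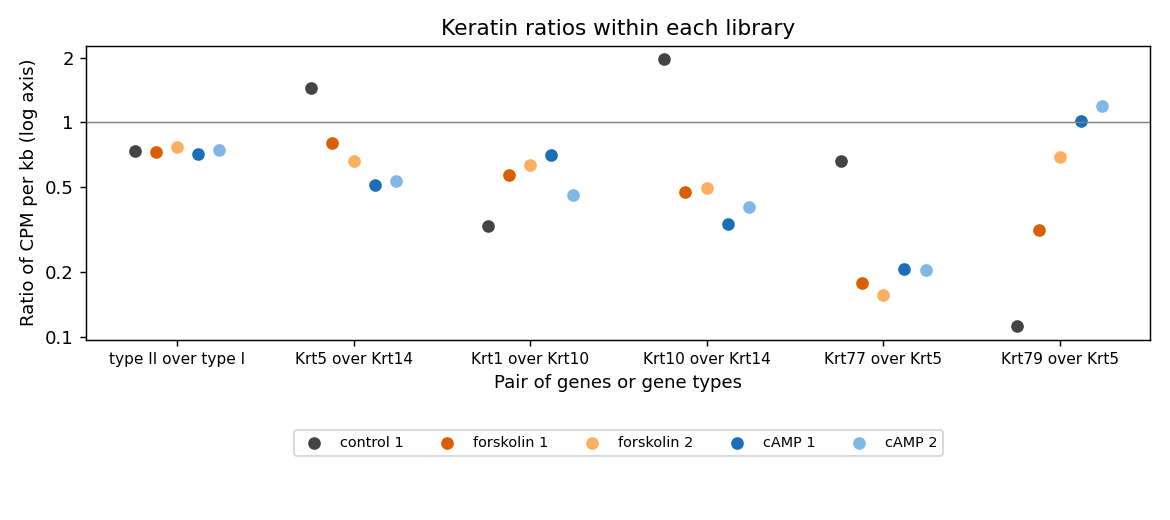
Ratios of CPM per kilobase within a library, on a log axis, with 1 point per library and the second transcripts of Krt14 and Krt15 included. The ratio of all type II to all type I keratins stays between 0.712 and 0.764 in the 5 libraries, while Krt10 over Krt14 is 1.96 in the control and at most 0.494 in the treated libraries.

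Ratios between members within a library set the classes side by side without any scaling between libraries. They include the second transcripts of Krt14 and Krt15 described above, and ratios from coding transcripts alone were not computed. The ratio of summed type II to type I keratins, in CPM per kb, was 0.737 in the control, 0.723 and 0.764 with forskolin and 0.712 and 0.745 with cAMP. The control lay inside the narrow range of the treated libraries. Krt5 over Krt14, the basal pair, was 1.44 in the control, 0.797 and 0.656 with forskolin and 0.511 and 0.533 with cAMP. Krt1 over Krt10, the suprabasal pair, was 0.327, then 0.565 and 0.629, then 0.700 and 0.458. In the control the basal pair thus held relatively more of its type II chain, and the suprabasal pair relatively less, than in any treated library.

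Across layers, Krt10 over Krt14, a suprabasal over a basal type I keratin, was 1.96 in the control, 0.473 and 0.494 with forskolin and 0.335 and 0.401 with cAMP. The same step among type II keratins, Krt1 over Krt5, gave 0.444 in the control and between 0.336 and 0.474 with treatment, with the control inside their range. Krt77 over Krt5 was 0.661 in the control and between 0.157 and 0.206 with treatment. Set against a basal keratin of their own type, Krt10 and Krt77 were lower in every treated library than in the control, and Krt1 was not. Krt79 over Krt5 was 0.112 in the control, 0.314 and 0.684 with forskolin and 1.02 and 1.19 with cAMP, lowest in the control and highest in the cAMP libraries. Krt6a over Krt16 was 1.46 in the control and between 0.750 and 1.26 with treatment. Both of these members share sequence with other genes, and Krt14 and Krt5 do so to a lesser extent.

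Forskolin against cAMP, the comparison with 2 libraries on each side, asks whether the compounds left different keratin patterns at doses that differ. limma called 0 of the 20 keratins (0.378% of all genes) as deposited and 0 with median-of-ratios scaling (0.349% of all genes), and at an unadjusted p under 0.05 there was 1 on each scale, Krt80. As deposited the libraries did not overlap for Krt80, higher with forskolin (16.7% of all genes), and for Krt9, Krt28 and Krt71, lower with forskolin (17% of all genes). With median-of-ratios scaling 5 keratins lay above (21.2% of all genes) and 5 below (20.4%). Krt80 differed by 1.17 ± 0.47 log2 units (limma adjusted p = 0.488), and with median-of-ratios scaling the difference was 1.15 ± 0.34 (adjusted p = 0.182). It passed without cAMP 1 (1.89, adjusted p = 0.0474), which leaves the lower of the cAMP libraries. Krt28 differed by -0.91 (adjusted p = 0.848), Krt71 by -0.88 (0.900) and Krt9, the keratin of palm and sole skin, by -0.38 (0.994). Krt79, whose forskolin libraries lay below the cAMP libraries with median-of-ratios scaling, differed by -0.60 ± 0.39 (0.623). For sebaceous markers, 1 of 7 was called lower with forskolin than with cAMP on each scale.

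The sequence just before the start of a gene is where Creb and other factors can bind. RefSeq promoters (GRCm38.p6) were matched for 25 of the 37 keratins, and 6 of the 13 most abundant. The full cAMP response element, TGACGTCA, was found in the 250 bases before the start of 0 of the 25 and in 1.55% of all 32851 promoters. Its shorter core TGACG, searched on both strands and also contained in the full element, was found in 3 of 25 (Krt5, Krt9 and Krt27) and in 17.77% of all promoters. The AP-1 site TGANTCA was found in 1 of 25 (Krt13) and in 6.75%, and the TATA box TATAAA in 9 of 25 and in 12.37%. Keratins were counted once per gene, with a match in any of its promoters, whereas the percentages count each promoter. A match is a description of the letters only. The windows are shown for Krt79 and Krt77, which moved in opposite directions with median-of-ratios scaling and hold no match, and for Krt10 and Krt5, which each hold 1. All 4 genes lie on the minus strand, each sequence reads towards the gene's start, and capitals mark the match. In Krt10 the TATA box begins 26 bases before the start, and in Krt5 the core TGACG begins 239 bases before it.
Krt79 (chr15:101940325-101940574, minus strand): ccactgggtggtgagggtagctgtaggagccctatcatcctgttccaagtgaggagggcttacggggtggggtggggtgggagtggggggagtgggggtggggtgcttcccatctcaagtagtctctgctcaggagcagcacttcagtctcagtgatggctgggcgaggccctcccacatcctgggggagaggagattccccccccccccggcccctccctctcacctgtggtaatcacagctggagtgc
Krt77 (chr15:101869706-101869955, minus strand): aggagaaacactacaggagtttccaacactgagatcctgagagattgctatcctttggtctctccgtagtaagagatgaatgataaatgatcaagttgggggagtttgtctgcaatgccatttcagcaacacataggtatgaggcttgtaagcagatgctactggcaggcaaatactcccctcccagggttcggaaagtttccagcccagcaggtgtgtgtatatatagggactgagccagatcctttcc
Krt10 (chr11:99389365-99389614, minus strand): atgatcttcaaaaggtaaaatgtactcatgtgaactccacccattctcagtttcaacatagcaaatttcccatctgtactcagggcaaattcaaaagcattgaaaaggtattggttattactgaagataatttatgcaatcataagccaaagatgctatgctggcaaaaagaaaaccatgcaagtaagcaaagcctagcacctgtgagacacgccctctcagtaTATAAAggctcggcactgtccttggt
Krt5 (chr15:101712906-101713155, minus strand): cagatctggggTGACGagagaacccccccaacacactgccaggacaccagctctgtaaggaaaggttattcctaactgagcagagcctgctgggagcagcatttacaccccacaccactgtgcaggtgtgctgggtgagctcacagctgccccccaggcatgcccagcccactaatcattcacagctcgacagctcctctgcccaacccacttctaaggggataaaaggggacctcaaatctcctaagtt

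Proteins that anchor or bundle keratin filaments were counted as partners of the family. Of 17 tested, 12 passed as higher and 1 as lower with forskolin as deposited, and 5 and 1 with cAMP, where 66.3% and 65.1% of all genes passed as higher. With median-of-ratios scaling 0 passed as higher and 2 as lower with forskolin (14.4% and 7.39% of all genes), and 0 and 6 with cAMP (14.8% and 7.78%). The list's median change was 1.85 with forskolin and 1.04 with cAMP as deposited, and -0.20 and -0.83 with median-of-ratios scaling. Flg2 and Hrnr, filaggrin-type proteins of the cornified layer, were called lower on that scale in both comparisons. Flg2 was at 4.84 CPM in the control and between 0.673 and 1.12 with treatment (-3.26, adjusted p = 0.000342, and -3.36, 0.000192). Rptn, a further protein of that family, was the only partner called between the compounds, at 22.2 and 19.5 CPM with forskolin against 7.43 and 1.38 with cAMP and 2.31 in the control (2.28 ± 0.48, limma adjusted p = 0.00287, and 2.21 ± 0.41, 0.0298, with median-of-ratios scaling).

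Transcription factors known to act on keratin genes were a separate list. Of 14 tested, 11 passed as higher and 0 as lower with forskolin as deposited, and 7 and 0 with cAMP, where 66.3% and 65.1% of all genes passed as higher. The list's median change was 1.68 and 1.28 as deposited, against 1.69 and 1.66 over all genes. With median-of-ratios scaling 3 passed as higher with forskolin (Cebpb, Tfap2a and Grhl3) and 2 with cAMP (Cebpb and Tfap2a). Klf4, a factor of barrier formation, passed as lower with cAMP on that scale (-1.64, limma adjusted p = 0.00789). Of all genes, 14.4% and 14.8% passed there as higher with forskolin and cAMP, and 7.39% and 7.78% as lower. Tfap2a, of the AP-2 family, was at 3.40 CPM in the control, 49.4 and 67.1 with forskolin and 52.2 and 26.8 with cAMP. Klf4 was at 47.6 CPM in the control, 226 and 126 with forskolin and 87.7 and 47.3 with cAMP. Of 6 other intermediate filament genes tested, 4 passed as higher with forskolin and 3 with cAMP as deposited (66.3% and 65.1% of all genes). With median-of-ratios scaling Synm passed as lower with forskolin and Lmnb2, a lamin gene, as higher with cAMP.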

How the data were processed

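RNA-seq of total dorsal epidermis was used for 5 libraries in 3 groups. The authors deposited 1 table of 59869 transcripts, and its values were read as CPM from the column sums, which lay below the unit's full total. The tools named in the submitters' processing notes are bcl2fastq 2.17, STAR and Partek, while their settings, the genome build and the annotation are not given in the sources used here. Columns were matched to libraries by the codes in the sample descriptions. Transcripts were summed per gene, and 3 rows with no gene identifier were left out of the tests. In place of 0 the deposited CPM hold a small offset, and if it stands for 0.0001 read the libraries hold 34200000 to 51700000 reads. Whole reads were not recovered, so no count model was run.

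Genes reaching 1 CPM in 2 or more libraries were tested with limma 3.58.1 in R 4.3.3, with an intensity trend on log2(CPM + 1), all 5 libraries in a single model of 3 groups without covariates, 2-sided, and p-values were adjusted by Benjamini-Hochberg over all genes tested. Log2 changes on this scale understate the change of low genes. With 1 control library, its spread was assumed to be that of the treated ones. The spread of each gene was drawn towards that of genes at similar levels. The weights were 360 prior against 2 residual degrees of freedom as deposited, and 15.7 against 2 with median-of-ratios scaling. Size factors came from 11512 genes above 0.05 CPM in every library. Alternatives covered scaling, pseudocount, filter, transcripts summed and single libraries left out. The fit was also run on simulated data, which drew all libraries round the same mean for each gene, apart from a set of changed genes. The control's shift against the treated libraries was not simulated, so that run does not bear on calls against this control. CPM per kb divides each transcript by its length in GENCODE M21 (GRCm38), which holds 40 of the 41 keratin transcripts, 26 of them with the same coordinates. Positions are those of the table.

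Levels are given per library for keratins with a mean of at least 10 CPM or past the threshold in a comparison. The members, classes and partner lists were chosen with earlier results of these data known.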

Additional observations from a re-analysis of the deposited data

How the results depend on the processing

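Scaling decided most calls against the control. With median-of-ratios scaling, scaling to nuclear genes or quantile normalization, 2 keratins were called higher and 5 lower with forskolin, in place of 10 and 0, and 1 was called higher with cAMP, in place of 7, with 5, 5 and 4 lower. With no filter on low values 5 keratins were called with forskolin, all higher. Leaving out each treated library in turn gave 6 to 11 higher calls with forskolin and 6 to 11 with cAMP, with 0 to 1 lower with cAMP. Forskolin against cAMP gave 0 to 1 calls, the 1 being Krt80 without cAMP 1. Alternatives chosen after seeing the data combined median-of-ratios scaling with others. Leaving out libraries on that scale gave 1 to 2 higher and 4 to 5 lower with forskolin (6 to 7 in all), and 1 to 2 higher and 4 to 5 lower with cAMP. A pseudocount of 0.1 gave 2 and 5 with forskolin and 2 and 5 with cAMP, and no filter gave 0 and 6 (6 in all) and 1 and 6. The 6 lower included, with each compound, Krt2, Krt4 and Krt26, which the filter otherwise left out. The cause of these shifts was not tested.

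Some changes turned direction. With median-of-ratios scaling the log2 changes with forskolin were -1.28 (Krt10), -1.76 (Krt75), -0.14 (Krt17), -1.66 (Krt80), -0.41 (Krt1), -0.21 (Krt78), -0.82 (Krt15) and -0.26 (Krt5), and with cAMP -1.85 (Krt10), -1.58 (Krt75), -0.18 (Krt32), -1.06 (Krt1), -0.70 (Krt78), -0.91 (Krt15), -1.003 (Krt28) and -0.90 (Krt5). Scaling to nuclear genes gave, in the same order, -1.15, -1.64, -0.013, -1.53, -0.29, -0.091, -0.69 and -0.13, and -1.79, -1.52, -0.13, -0.99, -0.64, -0.85, -0.95 and -0.83. Quantile normalization gave -0.60 (Krt10), -1.76 (Krt75), -1.54 (Krt80), -0.11 (Krt32), -0.19 (Krt78) and -0.90 (Krt71) with forskolin, and -1.18 (Krt10), -1.58 (Krt75), -0.32 (Krt32), -0.41 (Krt1), -0.70 (Krt78), -0.10 (Krt71), -0.31 (Krt15), -1.14 (Krt28) and -0.46 (Krt5) with cAMP. Leaving out each treated library in turn moved Krt77 from -0.47 to 0.22 with forskolin, turning without forskolin 2. With cAMP it moved Krt10 from -0.27 to 0.76 and Krt28 from -0.018 to 0.93, turning without cAMP 1, and Krt77 from -1.10 to 0.13, turning without cAMP 2. Krt8 passed the filter only without forskolin 2 or without cAMP 1, and turned from -0.076 to 0.34 with forskolin without the first and from -0.022 to 0.11 with cAMP without the other.

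From protein-coding transcripts alone, the control held 37.0% basal, 56.4% suprabasal and 6.23% stress and sheath keratins, forskolin 32.8% suprabasal, and cAMP 44.8%, 27.3% and 27.7%. It is not stated whether forskolin and cAMP libraries with the same replicate number belong together. The difference between replicates 1 and 2 with forskolin had a correlation of -0.05 with that for cAMP, over 13764 genes. With the replicate block, over the 4 treated libraries, 0 keratins were called between forskolin and cAMP. No paired analysis was possible because the control has 1 library in the comparisons with it. The 17 untested keratins were left out by the filter on low values, at up to 1.76 CPM, and whether depth limits them was not tested.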
